A study of Mus musculus with 4 samples.

Results

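The genes that encode cytosolic translation initiation factors (Eif) and elongation factors (Eef), with the kinases, repressors and methyltransferases that carry the same names, were examined in spermatogonial stem cells of the mouse, which sustain sperm production in the testis. Members were the protein-coding rows of the deposited table whose symbol begins with Eif or Eef followed by a digit, with 1 such gene left out by the rule. This gave 67 genes, 54 Eif and 13 Eef, of the 18287 protein-coding and 31600 total features in the table. The control group had 2 libraries, of cells labelled wild type (WT), and the differentiation group had 2 libraries, for which the genotype field reads Differentiation. The sources used here do not give how the cells were made to differentiate or for how long, nor the age and strain of the mice. Whether libraries of the same group stem from separate cultures or mice is likewise unstated, so p-values measure only the spread between these libraries, which may be technical.

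Initiation begins when eIF2 carries the initiator transfer RNA to the small ribosomal subunit, where eIF1, eIF1A, eIF3 and eIF5 assemble with it. The cap of the mRNA is bound by eIF4E, which the scaffold eIF4G links to the RNA helicase eIF4A and to eIF3, and eIF5B joins the large subunit. In elongation, eEF1A delivers aminoacylated transfer RNAs, the eEF1B complex recharges eEF1A with GTP, eEF2 moves the ribosome along the mRNA, and eIF5A relieves stalled peptide bond formation. Phosphorylation of eIF2 or eEF2 by dedicated kinases slows translation, and hypophosphorylated eIF4E-binding proteins keep eIF4E away from eIF4G. In the mouse germ line several of these factors exist as paralog pairs. The Y-linked gene Eif2s3y, which encodes the gamma subunit of eIF2, is known to be required for the proliferation of spermatogonia.

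Values are FPKM, that is, fragments relative to the gene's exon length and to the depth of its library. The length that fitted these values merges the exons of all annotated transcripts of a gene. It can exceed the length of the mRNA present, so levels and shares compare only roughly between genes. The steps of the FPKM values corresponded to scales of 17772000 to 20650200 fragments per library. Each tested member rested on 21 (Eif4ebp3) to 56474 (Eef1a1) fragments in a library, and 56 of the 64 tested members had at least 300 in each library. Undifferentiated spermatogonial markers (12 genes) summed to 147.5 and 150.8 FPKM in control and 48.93 and 49.02 in differentiation. Markers of pachytene spermatocytes (10 genes) summed to 94.11 and 99.23 in control and 861.9 and 883.3 in differentiation. Fibroblast and peritubular markers (10 genes) summed to 237.8 and 242.2 FPKM in control and 84.25 and 79.79 in differentiation, and macrophage and leukocyte markers (10 genes) to 73.31 and 68.91 and to 18.89 and 18.18. Sertoli cell markers (8 genes) summed to 89.96 and 90.16 in control and 90.66 and 85.25 in differentiation, Leydig cell markers (5 genes) to 37.09 and 38.21 and to 21.27 and 20.92, and endothelial markers (6 genes) to 12.7 and 12.48 and to 6.975 and 7.2. Spermatid markers (8 genes) were low, at 9.762 and 8.086 and at 12.65 and 11.34 FPKM. No marker of these lists was under 0.1 FPKM in every library. Sums follow the most abundant markers. At a limma adjusted p under 0.05, 1 of 12 undifferentiated spermatogonial markers rose and 9 fell, and of 10 pachytene markers 10 rose. Of 7 Sertoli cell markers tested 3 rose and 3 fell, and of 4 Leydig cell markers 1 rose and 2 fell. In the fibroblast list 9 of 10 fell, in the macrophage list 8 of 9 and in the endothelial list 1 of 4. Of 6 spermatid markers 3 rose. Across all features tested, 29.6% rose and 27% fell. Most of these sums moved with the groups, and their part in the differences below was not tested. A change in the mix of cells and a change in RNA per cell cannot be told apart in these bulk libraries.

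Of the 67 members, 64 had a mean of at least 0.5 FPKM and were tested, and 33 fell and 9 rose in differentiation at a limma adjusted p under 0.05. Across all 23138 features tested 56.6% were called, 29.6% higher and 27% lower, and across protein-coding features 66.5%, 32.5% higher and 34% lower. The share of members called, 65.6%, was thus near the protein-coding background, while 51.6% of members fell and 14.1% rose. Of the 49 members with a mean of at least 10 FPKM 71.4% were called, 16.3% higher and 55.1% lower, where 77.9% of protein-coding features at such levels were called, 42.3% higher and 35.6% lower. The median log2 fold change of the members, on the log2(FPKM + 1) scale, was -0.17, against -0.03 for protein-coding features and 0.01 for all features tested. Of the 64 tested members, 15 fell and 3 rose by at least 0.5 on this scale. Of protein-coding features 20.6% and 20.3% did so, and of all features tested 17.2% and 20.4%. Rises of this size were thus rarer among members than in either background, and falls were not. The groups did not overlap in 50 of the 64 tested members, and in 87.9% of protein-coding and 79.9% of all features tested. The member share was no higher than either background. The 3 members not tested were Eif4e1b, Eef1a2 and Eef1akmt3, all under 0.5 FPKM in every library.

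**Figure D1:**
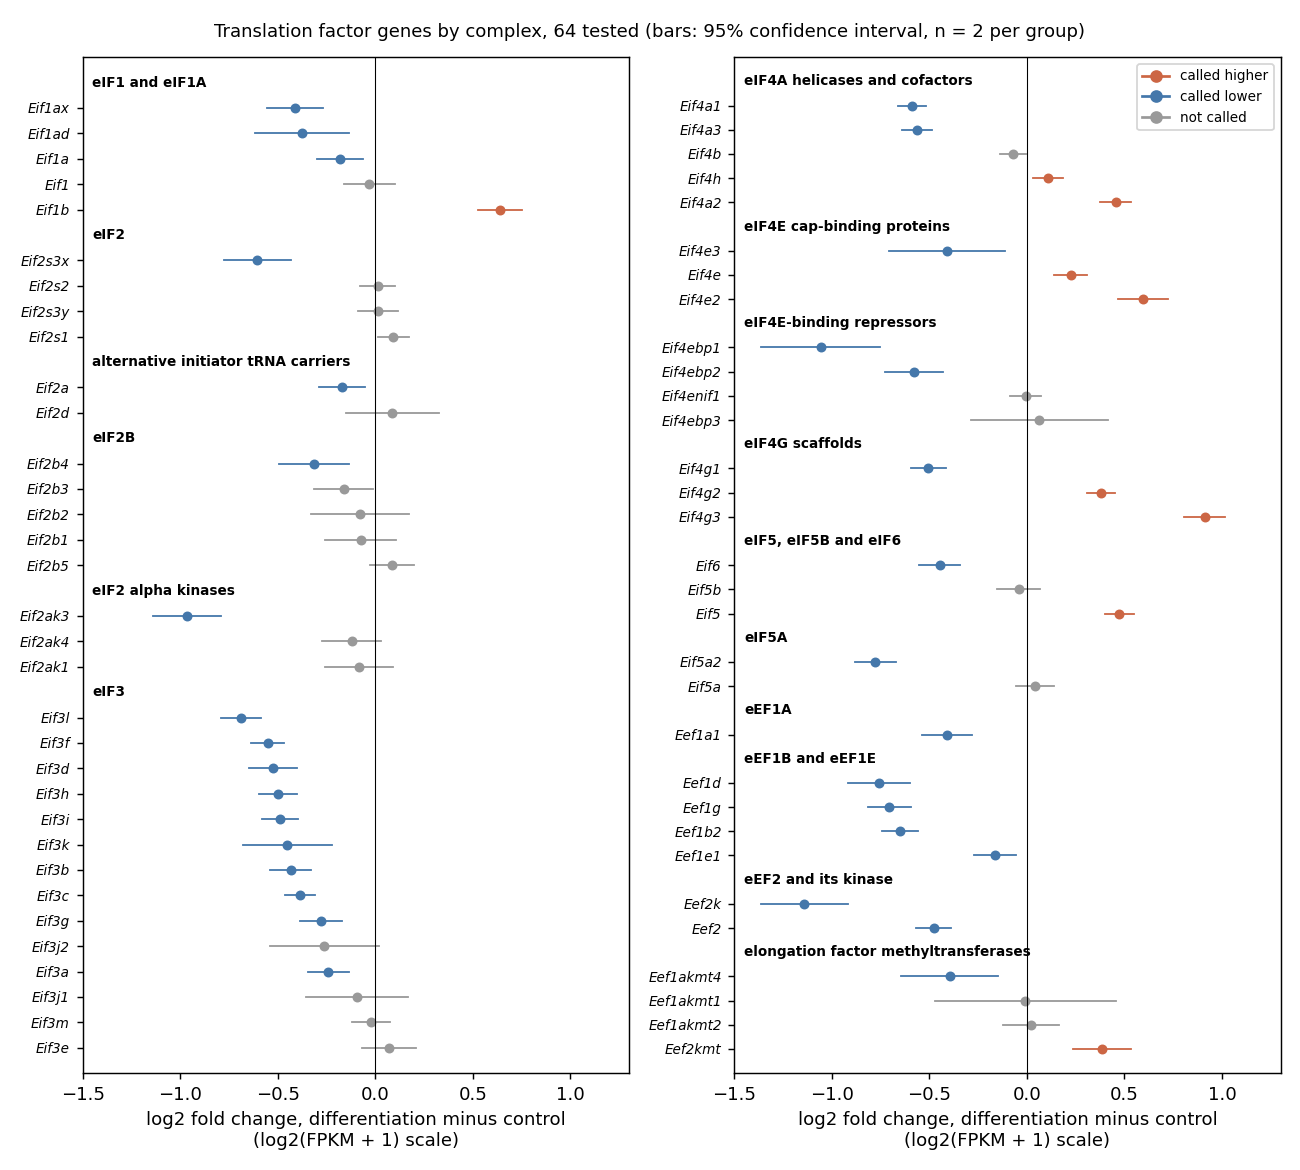
Log2 fold change (differentiation minus control, log2(FPKM + 1) scale, x axis) of the 64 tested members grouped by complex; points are limma estimates and bars 95% confidence intervals from 2 libraries per group. Elongation factors and most eIF3 subunits lie to the left of 0, while the eIF4A, eIF4G and eIF1 families hold members on each side, from -0.59 for Eif4a1 to 0.91 for Eif4g3.

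All 5 genes of eEF1A1, the eEF1B subunits and eEF2 fell, with a median log2 fold change of -0.65. Eef1a1, which encodes the main eEF1A and was the most abundant member, was at 1095 and 1097 FPKM in control and 833 and 816 FPKM in differentiation, which is -0.41 in log2 fold change (SE 0.05; limma adjusted p = 3.26e-03). Eef2, the translocation factor, was at 521 and 524 FPKM in control and 376 and 374 FPKM in differentiation (log2 fold change -0.48, SE 0.03; limma adjusted p = 9.15e-04). For each gene the control libraries lay within a narrow band above both differentiation libraries.

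All 3 exchange factor subunits of eEF1B fell. Eef1g, the gamma subunit, fell from 106 ± 4.49 to 64.4 ± 0.943 FPKM (SD, n = 2 in each group, with a limma adjusted p of 5.40e-04). Eef1b2 fell from 30.6 ± 0.528 to 19.1 ± 0.420 FPKM and Eef1d from 13.5 ± 0.141 to 7.58 ± 0.501 FPKM (SD, n = 2 in each group). Their log2 fold changes were -0.70, -0.65 and -0.76, with confidence intervals of -0.75 to -0.56 for Eef1b2 and -0.54 to -0.28 for Eef1a1. Whether these genes differ in their change was not tested. Eef1e1, a component of the aminoacyl-tRNA synthetase complex, fell by 0.16 (log2; limma adjusted p = 0.0266), and the authors' deposited table did not call it (adjusted p = 0.130). Its limma call was also lost without any 1 of the 4 libraries (0.0862 to 0.107), with a replicate block (0.0612) and with a prior variance without trend (0.0656). Eef1a2, the eEF1A of muscle and neurons, was between 0.148 and 0.405 FPKM in every library, on 6 to 15 fragments.

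Some of these genes have close copies, and the sources used here do not give how fragments were divided between copies. Of the distinct 50-base stretches in the GENCODE M21 transcripts of Eef1g, 44.2% also occur in transcripts of other genes, and for Eef1a1 the share is 39.4%. The gene sharing most with Eef1g, the processed pseudogene Gm4366, was listed at 16.7 and 16.6 FPKM in control and 5.74 and 5.45 FPKM in differentiation. The pseudogene sharing most with Eef1a1, Gm13456, was at 7.34 and 6.81 FPKM in control and 5.19 and 5.04 FPKM in differentiation. These copies were lower in differentiation too, and their levels were small beside those of the parent genes. For Eef1b2, Eef2 and Eef1d the shared portion was 8.28%, 7.10% and 5.61%.

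Eef2k, the kinase that phosphorylates and inhibits eEF2, had the largest fall among the tested members. It was at 5.37 and 5.92 FPKM in control and 1.98 and 2.04 FPKM in differentiation, on 774 and 905 and on 261 and 307 fragments. The mean in differentiation was 0.356 of that in control (log2 fold change -1.14, SE 0.08; limma adjusted p = 9.71e-04). Thus the substrate Eef2 and its kinase were both lower, and the kinase in a larger proportion (the ratio for Eef2 was 0.717). Among the methyltransferases that modify elongation factors, Eef2kmt, which acts on eEF2, rose from 7.92 ± 0.414 to 10.7 ± 0.223 FPKM (SD, n = 2 in each group, with a limma adjusted p of 5.85e-03). Eef1akmt4 fell from 3.26 ± 0.279 to 2.23 ± 0.0534 FPKM (SD, n = 2 in each group, with a limma adjusted p of 0.0238), a call that the authors' deposited table did not make (adjusted p = 0.0906) and that limma did not make without any 1 of the 4 libraries (0.0570 to 0.113) or with a replicate block (0.0509). Of the 50-base stretches of Eef1akmt4, 27.9% occur in other genes. Eef1akmt1 and Eef1akmt2 did not pass, with log2 fold changes of -0.01 and 0.02 whose signs turned under some settings. For Eef1akmt1 the confidence interval was wide (-0.47 to 0.46).

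The eIF3 complex, the largest initiation factor and a platform for the small ribosomal subunit, had 10 of 14 genes that fell and 0 that rose. Without differentiation replicate 1, 7 of them passed: Eif3a, Eif3g and Eif3k did not (limma adjusted p = 0.0607, 0.0508 and 0.0783), and Eif3a was also lost without differentiation replicate 2 (0.0617). In the main analysis 71.4% of the eIF3 genes fell, against 34% of protein-coding and 27% of all features tested. Among protein-coding features averaging 10 FPKM or more, 35.6% fell. The eIF3 share called in either direction was also 71.4%. It was 66.5% for protein-coding features tested and 77.9% for those averaging 10 FPKM or more. These shares were not tested against each other. The median log2 fold change over the 14 eIF3 genes was -0.41. Eif3l fell furthest: it was at 77.0 and 78.6 FPKM in control and 46.7 and 49.3 FPKM in differentiation (log2 fold change -0.69, SE 0.04; limma adjusted p = 5.07e-04). Eif3f was at 31.7 and 31.5 FPKM in control and 21.5 and 21.0 FPKM in differentiation, and Eif3d, a subunit that can itself bind the mRNA cap, at 74.2 and 71.3 and at 51.9 and 48.6 FPKM. The differentiation libraries lay below both control libraries for each of these 3 genes.

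All 4 subunits of the eIF3b, eIF3d, eIF3g and eIF3i group fell, with log2 fold changes from -0.53 (Eif3d) to -0.28 (Eif3g). Of the 8 genes of the octameric core, eIF3a, c, e, f, h, k, l and m, 6 fell and 2 did not pass. Eif3c, the most abundant subunit, fell from 106 ± 0.725 to 80.7 ± 1.53 FPKM, and Eif3a, the scaffold subunit, from 43.9 ± 1.87 to 37.0 ± 0.0339 FPKM (SD, n = 2 in each group). Eif3h, Eif3i and Eif3k had log2 fold changes of -0.50, -0.49 and -0.45.

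The 2 core subunits that did not pass were Eif3e and Eif3m. Eif3e was at 19.2 and 18.4 FPKM in control and 20.5 and 19.1 FPKM in differentiation, overlapping between groups (log2 fold change 0.07, confidence interval -0.07 to 0.21). Eif3m was at 33.8 and 32.4 FPKM in control and 32.9 and 32.3 FPKM in differentiation (log2 fold change -0.02, confidence interval -0.12 to 0.07). After quantile normalization these were -0.085 and -0.16, and Eif3m was then called lower (limma adjusted p = 0.0180). The sign of Eif3e also turned under median centring (-0.0039), and that of Eif3m without control replicate 1 (0.0093). The loosely bound subunit eIF3j is encoded by Eif3j1 and Eif3j2, whose annotated coding sequences were 100% identical over 783 aligned bases, so fragments could have been divided between them in either way. Their log2 fold changes were -0.09 and -0.26 (limma adjusted p = 0.461 and 0.0946), and Eif3j2 passed with a replicate block (limma adjusted p = 0.0418), after quantile normalization (limma adjusted p = 0.0415) and with limma-voom on recovered fragments (adjusted p = 0.0129).

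**Figure D2:**
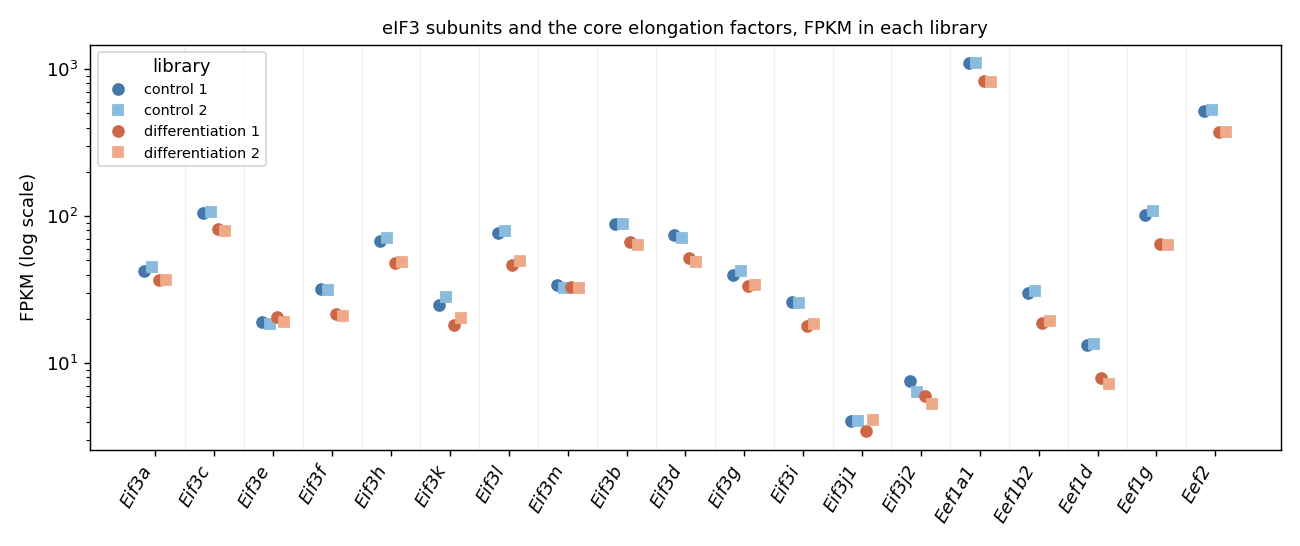
FPKM (log axis) of the eIF3 genes and of 5 elongation factor genes in each of the 4 libraries; circles and squares are replicates 1 and 2 of a group. Control points lie above differentiation points for Eif3l, Eif3f, Eif3d, Eef1a1, Eef1g and Eef2, while the points of Eif3e and Eif3m intermingle.

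Of the 4 genes of the eIF2 complex, the X-linked Eif2s3x fell and the others did not pass. It encodes the gamma subunit, which binds GTP and the initiator transfer RNA, and it has a Y-linked copy, Eif2s3y. The annotated coding sequences of both are 1416 bases long and 86.3% identical, and the longest identical stretch is 34 bases. The opening 90 coding bases, from GENCODE M21 transcripts (GRCm38), are shown because the copies could be counted apart only where they differ. Capitals mark the 16 positions that differ.
Eif2s3x: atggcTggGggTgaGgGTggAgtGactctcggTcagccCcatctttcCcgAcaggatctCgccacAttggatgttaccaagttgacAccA
Eif2s3y: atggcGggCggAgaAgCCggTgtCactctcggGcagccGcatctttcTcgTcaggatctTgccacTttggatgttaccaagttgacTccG
No 50-base stretch of the Eif2s3y transcripts occurs in another GENCODE gene (0%). For Eif2s3x 34.6% do, and the gene sharing most is the processed pseudogene Gm2223, listed at 0.250 to 0.381 FPKM over the 4 libraries.

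Eif2s3x was at 14.2 and 15.7 FPKM in control and 9.24 and 9.75 FPKM in differentiation (log2 fold change -0.60, SE 0.06; limma adjusted p = 2.52e-03). Eif2s3y was at 17.7 and 16.9 FPKM in control and 17.5 and 17.4 FPKM in differentiation, a log2 fold change of 0.01 with a confidence interval of -0.09 to 0.12 (limma adjusted p = 0.764). Its sign turned under quantile normalization, where it was -0.12 (limma adjusted p = 0.0420), and under median centring, limma-voom and without control replicate 2. The Y-linked copy made up 55.4% and 51.9% of the summed FPKM of the pair in control and 65.5% and 64.1% in differentiation. The shares did not overlap between groups, but an exact permutation test of 2 against 2 libraries cannot give a two-sided p below 0.333, which is the value found here. The alpha subunit gene Eif2s1 and the beta subunit gene Eif2s2 had log2 fold changes of 0.09 and 0.01, which became -0.048 and -0.13 after quantile normalization (limma adjusted p = 0.237 and 0.0345), and Eif2s1 was near the threshold (limma adjusted p = 0.0544, and 0.0483 when the filter was raised to 2 FPKM).

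The other X-linked member, Eif1ax, which encodes eIF1A, also fell, from 14.2 ± 0.475 to 10.5 ± 0.491 FPKM (SD, n = 2 in each group, with a limma adjusted p of 4.41e-03). Its autosomal paralog Eif1a fell less, from 27.9 ± 0.251 to 24.5 ± 1.19 FPKM (log2 fold change -0.18; limma adjusted p = 0.0267). The call on Eif1a was lost when control replicate 1, control replicate 2 or differentiation replicate 2 was left out (limma adjusted p = 0.0858, 0.104 and 0.0721) and with a prior variance without trend (limma adjusted p = 0.0812). Among all 537 X-linked protein-coding features tested, 297 (55.3%) fell and 59 (11%) rose, with a median log2 fold change of -0.36. Across all protein-coding features tested 34% fell and 32.5% rose, with a median of -0.03. Lower values were thus more common among X-linked genes in this comparison. Ddx3x, an X-linked RNA helicase that assists scanning, was at 60.7 and 59.6 FPKM in control and 33.6 and 31.3 FPKM in differentiation. Its Y-linked copy Ddx3y did not pass (log2 fold change -0.15; limma adjusted p = 0.174), but was called lower after quantile normalization and with limma-voom (0.0430 and 0.0113), and its autosomal germ cell copy D1Pas1 rose from 9.55 and 9.33 FPKM to 40.3 and 37.5 FPKM (log2 fold change 1.93; limma adjusted p = 1.19e-04).

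The genes of eIF2B, which recharges eIF2 with GTP, moved little. Eif2b4, the delta subunit, fell from 13.5 ± 0.415 to 10.6 ± 0.837 FPKM (SD, n = 2 in each group, with a limma adjusted p of 0.0181), and the other 4 subunit genes did not pass, with log2 fold changes from -0.16 (Eif2b3) to 0.09 (Eif2b5). The call on Eif2b4 was lost without control replicate 1, control replicate 2 or differentiation replicate 2 (limma adjusted p = 0.0807, 0.0550 and 0.0573). Eif2b3 was called lower after quantile normalization, median centring and with limma-voom (adjusted p = 0.0186, 0.0249 and 0.00889). Of the alternative carriers of transfer RNA, Eif2a fell by 0.17 on the log2 scale (adjusted p = 0.0327 by limma), a call lost without any 1 of the 4 libraries (limma adjusted p from 0.0935 to 0.122), with a replicate block (0.0717) and with a prior variance without trend (0.0599). Eif2d had a log2 fold change of 0.09 (confidence interval -0.15 to 0.33).

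Of 3 eIF2 alpha kinase genes examined, Eif2ak3 fell. Its product, PERK, senses unfolded proteins in the endoplasmic reticulum. It was at 7.38 and 7.73 FPKM in control and 3.30 and 3.47 FPKM in differentiation, a ratio of means of 0.448 (log2 fold change -0.96, SE 0.06; limma adjusted p = 7.84e-04). Eif2ak1, the heme-regulated kinase, was at 13.0 and 13.0 FPKM in control and 11.5 and 12.9 FPKM in differentiation. Eif2ak4, the amino acid sensor GCN2, was at 7.18 and 7.12 and at 6.30 and 6.70 FPKM. Neither passed (limma adjusted p = 0.314 and 0.134), although Eif2ak4 was called lower after quantile normalization (0.0289), median centring (0.0420) and with limma-voom (0.0278), and their confidence intervals, -0.26 to 0.09 and -0.27 to 0.03, do not reach that of Eif2ak3, which ran from -1.14 to -0.79.

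Genes around eIF2 phosphorylation, a list of 8 of which 7 were in the table, moved in both directions: 4 fell, 3 rose and 0 failed to pass. The share called was thus 100% of 7 genes, against 56.6% of all features and 66.5% of protein-coding features tested. Atf4, the transcription factor translated when eIF2 is phosphorylated, fell from 101 and 104 FPKM to 51.6 and 50.8 FPKM (log2 fold change -0.99; limma adjusted p = 1.73e-04). Ppp1r15b, a subunit of the eIF2 alpha phosphatase, fell by 0.75 on the log2 scale (adjusted p = 2.79e-04 by limma). Dnajc3, a chaperone also known as an inhibitor of eIF2 kinases, rose from 11.0 and 11.3 to 27.1 and 25.0 FPKM (limma adjusted p = 3.21e-04).

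**Figure D3:**
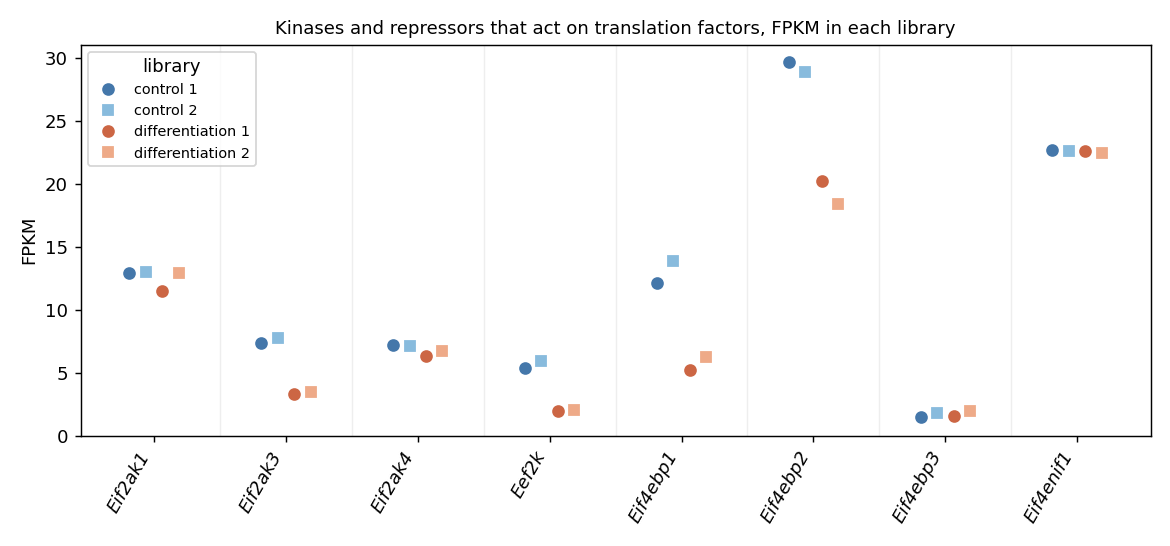
FPKM (linear axis from 0) of the kinase and repressor genes in each of the 4 libraries; circles and squares are replicates 1 and 2 of a group. Eif2ak3, Eef2k, Eif4ebp1 and Eif4ebp2 are lower in both differentiation libraries, and Eif4enif1 stays between 22.5 and 22.7 FPKM.

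Within the cap-binding machinery, paralogs moved in opposite directions. Eif4g1, the main scaffold, was at 69.1 and 71.8 FPKM in control and 49.9 and 48.8 FPKM in differentiation (log2 fold change -0.51, SE 0.03; limma adjusted p = 7.69e-04). Eif4g3, a scaffold known to be needed for male meiosis, rose from 8.89 and 8.81 FPKM to 17.2 and 17.8 FPKM (log2 fold change 0.91, SE 0.04; limma adjusted p = 2.98e-04), the largest rise among the tested members. The share of Eif4g3 in the summed FPKM of Eif4g1 and Eif4g3 went from 11.4% and 10.9% in control to 25.7% and 26.8% in differentiation. Eif4g2, which lacks the eIF4E-binding region and serves cap-independent initiation, rose from 77.7 ± 0.474 to 101 ± 1.12 FPKM (SD, n = 2 in each group, with a limma adjusted p of 8.36e-04). Per length, Eif4g2 and Eif4g1 stood at 77.7 and 70.5 FPKM in control and at 101 and 49.4 FPKM in differentiation.

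The eIF4A helicases showed the same kind of split. Eif4a1 fell from 136 and 138 FPKM to 91.4 and 90.4 FPKM (log2 fold change -0.59, SE 0.03; limma adjusted p = 3.26e-04), and Eif4a2 rose from 42.8 and 43.2 FPKM to 60.3 and 58.4 FPKM (log2 fold change 0.46, SE 0.03; limma adjusted p = 7.42e-04). Eif4a2 thus went from 24.0% and 23.8% to 39.7% and 39.2% of the pair. The coding sequences are 78.2% identical, with no identical stretch over 20 bases, while 28.4% of Eif4a1 and 10.6% of Eif4a2 50-base stretches occur in other genes. Eif4a3, a helicase of the exon junction complex, fell from 47.8 ± 0.789 to 32.0 ± 0.0840 FPKM (SD, n = 2 in each group). The helicase cofactors moved least: Eif4b did not pass (log2 fold change -0.07, limma adjusted p = 0.0725), but was called lower after quantile normalization, median centring and with limma-voom (adjusted p = 0.0259, 0.00985 and 0.00938). Eif4h was higher by 0.11 in log2 (limma adjusted p = 0.0309), a value that was -0.015 after quantile normalization and was not called there (0.683), after median centring (0.321), with a prior variance without trend (0.159), with a replicate block (0.0627) or without any 1 of the 4 libraries (0.0748 to 0.127).

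The cap-binding proteins also differed among themselves. Eif4e, the general factor, rose from 21.9 and 22.4 FPKM to 26.3 and 25.8 FPKM (log2 fold change 0.23; limma adjusted p = 5.39e-03), a call lost after quantile normalization (log2 fold change 0.08; limma adjusted p = 0.0811). Eif4e2, a homolog that represses selected mRNAs, rose from 11.5 and 10.9 FPKM to 17.1 and 17.8 FPKM (log2 fold change 0.60; limma adjusted p = 1.21e-03). Eif4e3 was low, at 1.35 and 1.10 FPKM in control and 0.694 and 0.644 FPKM in differentiation on 66, 57, 31 and 33 fragments, and its call (limma adjusted p = 0.0347) was lost without any 1 of the 4 libraries (0.0627 to 0.135) and with a replicate block (0.0569). Of the 50-base stretches of Eif4e3, 12.3% occur in other genes. The gene sharing most, the protein-coding Gm20696, was at 3.367 and 2.935 FPKM in control and 1.602 and 1.205 FPKM in differentiation. Eif4e1b, the oocyte form, had at most 6 fragments in a library.

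Of the 4 genes for proteins that bind and restrain eIF4E, 2 fell. Eif4ebp1, a target of mTOR and of the transcription factor ATF4, was at 12.1 and 13.9 FPKM in control and 5.20 and 6.26 FPKM in differentiation (log2 fold change -1.06, SE 0.11; limma adjusted p = 2.60e-03). Eif4ebp2, the more abundant form, was at 29.7 and 28.9 FPKM in control and 20.2 and 18.4 FPKM in differentiation (log2 fold change -0.58, SE 0.05; limma adjusted p = 1.97e-03). Eif4ebp3 was at 1.45 to 1.91 FPKM, on 21 to 29 fragments, with overlapping groups, and 65.5% of its 50-base stretches occur in other genes. Eif4enif1, which carries eIF4E into the nucleus, was nearly level at 22.7 ± 0.0479 and 22.6 ± 0.0661 FPKM (SD, n = 2 in each group; log2 fold change -0.01, confidence interval -0.09 to 0.07), but was called lower after quantile normalization (log2 fold change -0.15; limma adjusted p = 0.0132).

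Among factors of start codon selection and subunit joining, Eif1b and Eif5 rose. Eif1 and Eif1b encode closely related eIF1 proteins that guard start codon choice. Eif1 was at 90.3 and 95.6 FPKM in control and 93.8 and 88.2 FPKM in differentiation, with no call (limma adjusted p = 0.632). Eif1b rose from 41.1 and 43.8 FPKM to 65.8 and 67.6 FPKM (log2 fold change 0.64, SE 0.04; limma adjusted p = 7.50e-04), so its share of the pair went from 31.3% and 31.4% to 41.2% and 43.4%. Eif5, which triggers GTP hydrolysis by eIF2, rose from 62.1 and 60.6 FPKM to 86.0 and 85.2 FPKM (log2 fold change 0.47; limma adjusted p = 5.59e-04). Eif5b did not pass, with a log2 fold change of -0.04, but was called lower after quantile normalization (log2 fold change -0.19; limma adjusted p = 0.0186). Eif6, which keeps ribosomal subunits apart and acts in large subunit biogenesis, fell from 42.5 ± 0.570 to 30.9 ± 1.20 FPKM (SD, n = 2 in each group, with a limma adjusted p of 1.52e-03). Eif1ad, whose product has an eIF1A-like domain, fell by 0.38 on the log2 scale (adjusted p = 0.0250 by limma), a call lost without control replicate 2, differentiation replicate 1 or differentiation replicate 2 (0.0677, 0.129 and 0.0726).

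The eIF5A pair split in the other order, with the minor copy lower. Eif5a, the major form, was at 167 and 175 FPKM in control and 174 and 178 FPKM in differentiation, with no call (log2 fold change 0.04, confidence interval -0.06 to 0.14). Its direction turned under median centring (log2 fold change -0.03), and it was called higher after quantile normalization (log2 fold change 0.14; limma adjusted p = 0.0427). Eif5a2 fell from 17.1 and 17.3 FPKM to 9.47 and 9.75 FPKM (log2 fold change -0.78, SE 0.04; limma adjusted p = 3.89e-04). Its share of the pair was 9.26% and 8.99% in control and 5.16% and 5.20% in differentiation.

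**Figure D4:**
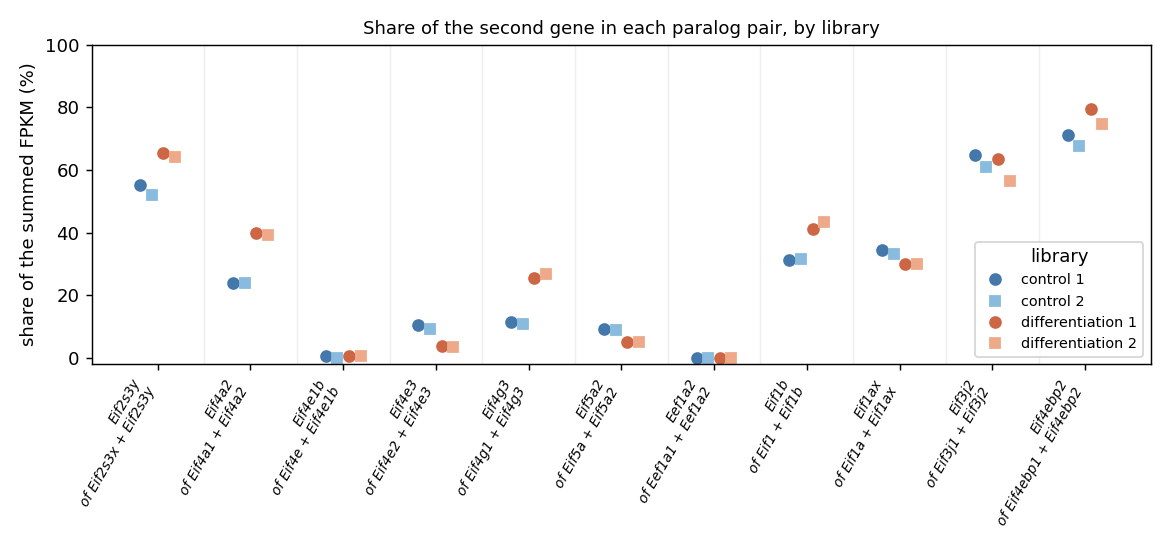
Share of the second gene in the summed FPKM of each of 11 paralog pairs (y axis, %), by library; circles and squares are replicates 1 and 2 of a group. Shares of Eif4g3, Eif4a2, Eif2s3y and Eif1b are higher in both differentiation libraries and those of Eif4e3 and Eif5a2 lower, while Eif3j2 and Eif4e1b overlap between groups.

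Over the 11 pairs the shares did not overlap between groups in all but the Eif4e with Eif4e1b and the Eif3j1 with Eif3j2 pair. Each of the other 9 had an exact permutation two-sided p of 0.333, the smallest possible, and 0.407 after Benjamini-Hochberg adjustment over the 11, so this test could not pass for a share of any size, and no other test of the shares was run. The widest shifts were 15.6 percentage points for Eif4a2 and 15.0 for Eif4g3. The shares of Eif4e1b and Eef1a2 were at most 0.567% and 0.0486% of their pairs.

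Start sites were compared because many mRNAs of translation genes begin with a pyrimidine tract, the 5′ terminal oligopyrimidine element through which mTOR and LARP1 control them. RefSeq starts (GRCm38.p6) were listed for 51 of the 67 members. A C followed by at least 4 further C or T bases was searched on the transcript's strand alone, beginning within 5 bases of a listed start. It was found for 14 members (27.5%), against 22.8% of 13892 protein-coding symbols, so the share was near the background. Of the 14, 8 fell and 0 rose, with a median log2 fold change of -0.39, and of the 36 others tested 17 fell and 8 rose, with a median of -0.08; this is a description of few genes and was not tested. The share that fell was 57.1% with a run and 47.2% without. Of all tested members, which include both sets, 51.6% fell. The windows below, 10 bases before the start to 20 from it, are examples, with the run in capitals. They include no member that lacked a run and was not called. The choice of genes is illustrative and was made after their values were seen. The search also accepted a C that lies inside a longer tract. In the Eif2b5 window all bases before the capitals are C or T, so that tract begins before the stretch marked.
Eif3f, fell, chr7:108934405-108934434, plus strand: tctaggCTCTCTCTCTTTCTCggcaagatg
Eif3l, fell, chr15:79075213-79075242, plus strand: gagttcttcttccgCTCTCTCCCacgggct
Eif2s3y, not called, chrY:1010585-1010614, plus strand: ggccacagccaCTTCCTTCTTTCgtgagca
Eif2b5, not called, chr16:20498807-20498836, plus strand: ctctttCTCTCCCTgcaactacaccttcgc
Eif3d, fell, chr15:77970805-77970834, minus strand: agggccatttacgacagcgctggtcgccgt
Eef2, fell, chr10:81176621-81176650, plus strand: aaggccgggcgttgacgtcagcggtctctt
Eif4g3, rose, chr4:137993445-137993474, plus strand: tccgagcggccgtcctgccggactgctgga
Of the 14 members with a run, 6 were not called, and 17 of the 36 tested members without it fell. The search took the listed starts as the true starts. Where transcripts begin elsewhere a tract would have been missed, so members without a run are not shown to lack one.

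Partners of these factors were followed in 6 lists, of which that around eIF2 phosphorylation is given above. The share called was 53.8% for partners of eIF4F and scanning, 81.8% for mTOR and MNK genes and 33.3% for termination, recycling and reinitiation. It was 50% for genes that modify or accompany elongation factors and 40% for mitochondrial factors. Across all features tested 56.6% were called, and across protein-coding features 66.5%. The lists are small, and their shares were not tested against these. Among 13 partners of eIF4F and of scanning, 6 rose and 1, Ddx3x, fell. Besides D1Pas1, Paip1, which links poly(A)-binding protein to eIF4A and eIF3, rose from 13.9 and 13.7 FPKM to 26.5 and 26.6 FPKM (log2 fold change 0.90; limma adjusted p = 1.97e-04), and Larp1 rose by 0.45 on the log2 scale. Among 11 genes of mTOR and MNK signalling, 4 rose and 5 fell. Tsc2, an inhibitor of mTOR signalling, fell from 16.1 and 16.0 to 10.2 and 10.3 FPKM (limma adjusted p = 6.03e-04), while Mtor itself rose by 0.33 on the log2 scale and Mlst8, a subunit of the mTOR complexes, had a log2 fold change of -0.48.

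Of 9 genes of termination, recycling and reinitiation, 2 fell and 1 rose. Gspt2, the second copy of the release factor eRF3, fell from 3.96 and 4.06 FPKM to 1.96 and 1.81 FPKM (limma adjusted p = 2.52e-03), while its major copy Gspt1 did not pass (log2 fold change -0.02), except after quantile normalization (log2 fold change -0.15; limma adjusted p = 0.0333). Hbs1l, a rescue factor for stalled ribosomes, rose by 0.42, and the reinitiation factor Denr had a log2 fold change of -0.39. That call on Denr was lost without differentiation replicate 1 or 2 (limma adjusted p = 0.0590 and 0.0502).

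Of 14 enzymes and proteins that modify or accompany elongation factors, 4 rose and 3 fell. Tpt1, a translationally controlled protein that binds eEF1A, fell from 126 and 128 FPKM to 88.8 and 86.2 FPKM (limma adjusted p = 5.07e-04), Mettl13, an eEF1A methyltransferase, fell by 0.70 on the log2 scale, and Gtpbp2, a GTPase of ribosome rescue, rose by 0.66. Of 10 mitochondrial translation factors, 3 fell and 1 rose, with log2 fold changes of -0.47 for Tufm, the mitochondrial elongation factor Tu, and 0.38 for Mtif2. The call on Mtif2 was lost without differentiation replicate 2, where its log2 fold change was 0.33. Mtif3, with a log2 fold change of -0.43, did not pass without control replicate 1, control replicate 2 or differentiation replicate 2. Its log2 fold changes there were -0.43, -0.44 and -0.32, so neither call was traced to a single library. Over the lists the median log2 fold changes ran from -0.58 to 0.11, and the lists share their libraries and their fit with the members.

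The authors' deposited table, whose test is not named in the sources used here, called 40 of the 67 members, 31 lower and 9 higher. All 40 were also called here in the same direction, and the 2 called here alone were Eef1e1 and Eef1akmt4. Both analyses use the same libraries, so this overlap is no independent support.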

How the data were processed

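Per the labels' protocols, RNA isolated with TRIzol was cleared of ribosomal RNA before 2 control and 2 differentiation libraries were made. Per the submitters' processing notes, HISAT2 and the GRCm38 build were used. The sources used here do not give the annotation, how fragments were counted or whether strand was used. The deposited table gives FPKM per feature and library, computed by the authors. It also gives the authors' log2 fold change and a p-value with its adjusted p.

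Here limma 3.58.1 in R 4.3.3 was fitted to log2(FPKM + 1) with group as its sole term and a prior variance that follows intensity, over the 23138 features whose mean reached 0.5 FPKM, two-sided, with Benjamini-Hochberg adjustment over all of them. The fit had 2 residual degrees of freedom and a prior of 2.14. Fold changes on this scale understate changes of low genes. FPKM times the merged exonic length in GENCODE M21 (31536 of 31600 identifiers matched) gave whole fragments, within 0.05, for 96.18% to 96.22% of features under 300 fragments. The fit was also run on simulated data with known changes. Their spread between libraries was set beforehand and not taken from these libraries, so that run does not vouch for the calls reported here. Python 3.11.15, pandas 2.3.3, biopython 1.88 and matplotlib 3.10.9 were used for the rest.

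Named genes were members called with an absolute log2 fold change of at least 0.5, the most abundant member of each complex, the paralog pairs, and up to 3 genes per partner list by smallest p. Other members were named with their complex, and Ddx3y, Larp1 and Gspt1 fall outside the rule and were chosen after their values were seen. The members, lists and rule were chosen with earlier results of these data known. The alternatives changed the pseudocount, filter, scaling or prior variance, or used a replicate block, limma-voom on recovered fragments and left out each library in turn.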

Additional observations from a re-analysis of the deposited data

How the results depend on the processing

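Of the 42 members called, 33 to 38 passed without 1 library, with a prior variance without trend or with a replicate block, and 42 to 50 members passed under the other settings. Every member called in the main analysis and again under one of these alternatives kept its direction. The 9 higher and 33 lower members became 8 higher and 25 to 27 lower without 1 library. Replicate numbers do not mark a pairing in the labels, and deviations of same-numbered libraries had a correlation of -0.00041; with a replicate block, 8 members were higher and 30 lower. The median member change was -0.19 with a pseudocount of 0.1, -0.16 with no filter and -0.21 to -0.17 without 1 library. It was -0.30 after quantile normalization, -0.25 after median centring and -0.22 with limma-voom. The median over all features tested was 0.012 in the main analysis. It became -0.085 after quantile normalization, -0.062 after median centring and -0.0094 with limma-voom. Under these settings the member median thus moved down together with that of all features. Calls of single genes as lower under these settings share that limit. Among the partner lists, the lower genes of termination and recycling numbered 5 (quantile), 4 (voom) and 1 to 2 (without 1 library). For eIF4F partners, 3 were higher and 4 lower after quantile normalization, and 2 and 3 were lower with median centring and voom. For mTOR and MNK genes, 2 were higher after quantile normalization, and 2 to 3 were higher and 3 to 4 lower without 1 library. For mitochondrial factors, 2 were higher with voom, and 0 to 1 were higher and 1 to 2 lower without 1 library. After quantile normalization, the shares of Eif4a2, Eif5a2 and Eif1b shifted by 13.7, -5.14 and 9.40 percentage points. Of the 42 called members, 30 kept their call under every alternative. Over these alternatives the sign turned for 1 called member, Eif4h (-0.015, quantile). Signs also turned for members not called. After quantile normalization these were Eif1 (0.0067), Eif2b5 (-0.059), Eif2d (-0.0071), Eif2s1 (-0.048), Eif2s2 (-0.13), Eif2s3y (-0.12), Eif3e (-0.085), Eif4ebp3 (-0.0086) and Eef1akmt2 (-0.091). After median centring they were Eif2s2 (-0.062), Eif2s3y (-0.060), Eif3e (-0.0039), Eif4ebp3 (-0.012), Eif5a (-0.035) and Eef1akmt2 (-0.053), and with limma-voom Eif2s2 (-0.013), Eif2s3y (-0.011) and Eef1akmt2 (-0.00072). Without 1 library the ranges that crossed 0 were -0.073 to 0.014 for Eif1, -0.19 to 0.040 for Eif2b2, -0.0065 to 0.18 for Eif2d, -0.015 to 0.045 for Eif2s3y, -0.19 to 0.0089 for Eif3j1, -0.053 to 0.0093 for Eif3m, -0.039 to 0.16 for Eif4ebp3, -0.23 to 0.21 for Eef1akmt1, -0.0041 to 0.047 for Eef1akmt2 and, among partners, -0.061 to 0.024 for Gspt1. The eIF3 genes called lower numbered 7 to 12 over the alternatives, and the 5 genes of eEF1A1, eEF1B and eEF2 were called lower under each. The cause of these changes was not tested. Among tested members, Eif4ebp3, Eif4e3 and Eef1akmt4 rest on the fewest fragments, and with 2 libraries per group no share of a pair could pass the exact test.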
